A study of Mus musculus with 6 samples.

Results

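Beta-defensins are small cationic peptides, held together by disulfide bonds, that epithelia secrete against bacteria and fungi. The 9 genes described here, Defb1, Defb3, Defb5, Defb6, Defb19, Defb22, Defb23, Defb25 and Defb45, were found by gene symbol in a table of 15643 genes. They are 9 of the 16 rows of that table whose symbol starts with Defb, and no row of it carries a Spag11 symbol. The members were chosen by symbol with their UMI counts in the comparison of Aire+/+ with Aire-/- in view, so their levels and ratios are given as a description, without a test.

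The peptides are known to disrupt microbial membranes and, in several cases, to attract cells that carry the chemokine receptor CCR6. Some family members are made by skin, airway, gut or kidney epithelium, and others mainly by the epididymis and testis, where they coat sperm. Medullary thymic epithelial cells display such tissue-restricted proteins to developing T cells. The transcriptional regulator Aire is known to drive part of that display.

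The RNA came from mature medullary epithelial cells of the thymus (mTEChi, the MHC class II-high fraction). They were sorted from NOD mice, a strain that develops autoimmune diabetes, at an age of 4.5 weeks. Of the 6 MARS-seq libraries, 3 were labelled Aire+/+ (745, 750 and 753) and 3 Aire-/- (746, 748 and 749). All 6 share the NOD background and the age. Which part of Aire is deleted, the sex of the mice, and whether each number is a separate animal are not stated in the labels, so any p-value measures only the spread between these libraries. MARS-seq counts unique molecular identifiers (UMIs), each of which marks a captured RNA 3′ end.

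Library totals ran from 2736932 to 2887321 UMIs for Aire+/+ and from 1014581 to 1960802 for Aire-/-. Aire itself was counted at 6290, 6783 and 7290 UMIs in Aire+/+, and at 4772, 8298 and 8372 in the libraries labelled Aire-/-. Relative to library size, Aire rose (log2 fold change 1.10, SE 0.14, edgeR adjusted p = 7.76e-05). Whether the counted 3′ tags lie inside the deleted part is not stated, so this count could not be used to check the labels. Libraries 753 and 746 stood apart in Gapdh, with 90 and 28 UMIs against 2245 to 4166 in the other 4. Of 10 markers of mature medullary epithelium all were detected, and 5 rose in Aire-/-, Cd80, Cd86, H2-Aa, H2-Ab1 and Aire. Of all tested genes 8.59% were called higher. The markers Epcam, Krt5, Krt14, Fezf2 and Tnfrsf11a did not pass, at log2 fold changes of 0.01, -0.24, -0.16, -0.14 and -0.41. The summed level of the 10 was 26006 to 30981 CPM in Aire+/+ and 46488 to 53051 CPM in Aire-/- (CPM, counts per 1000000 UMIs of the library, scaled by edgeR's TMM factors). Most of that sum was H2-Aa and H2-Ab1 in every library. All 5 cortical epithelial markers rose as well, from a summed 391 to 620.2 CPM to 865 to 1026 CPM. None of the markers of T cells, of B cells and dendritic cells, or of macrophages was called, and among those of fibroblasts and endothelium Col3a1 rose, with 190 UMIs in library 746 and 14 to 69 in the other 5. The part of these differences in the beta-defensin values was not tested.

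Promoter sequences are shown for Defb6, Defb5 and Defb3 because these neighbours on chromosome 8 were all lower in Aire-/- and share stretches of sequence close to their starts. Each is the 250 bases before the RefSeq start on the plus strand of GRCm38.p6, 5′ to 3′, at chr8:19225228-19225477 for Defb6, chr8:19247342-19247591 for Defb5 and chr8:19293111-19293360 for Defb3. Capitals mark the octamer ATTTGCAT, the recognition sequence of POU-domain factors, and the TATA-like motif TATATAA.
Defb6: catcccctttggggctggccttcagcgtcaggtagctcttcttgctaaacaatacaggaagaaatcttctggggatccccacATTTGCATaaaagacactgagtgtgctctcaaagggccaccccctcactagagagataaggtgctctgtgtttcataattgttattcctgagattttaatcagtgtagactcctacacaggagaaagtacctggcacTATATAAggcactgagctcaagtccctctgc
Defb5: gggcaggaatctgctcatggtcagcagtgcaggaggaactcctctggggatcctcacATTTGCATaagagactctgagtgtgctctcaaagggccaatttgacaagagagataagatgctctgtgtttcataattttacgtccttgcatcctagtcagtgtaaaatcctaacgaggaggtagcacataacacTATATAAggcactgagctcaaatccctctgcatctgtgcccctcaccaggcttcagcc
Defb3: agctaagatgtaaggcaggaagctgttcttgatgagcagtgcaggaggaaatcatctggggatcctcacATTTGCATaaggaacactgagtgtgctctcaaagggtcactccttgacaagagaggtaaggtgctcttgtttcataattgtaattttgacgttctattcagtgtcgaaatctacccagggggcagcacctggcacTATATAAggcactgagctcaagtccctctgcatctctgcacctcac
The octamer begins 168 bases before the start in Defb6, 193 in Defb5 and 181 in Defb3. The TATATAA motif begins 31, 58 and 46 bases before the start in the same order. On either strand, the octamer occurred in 1.6% and TATATAA in 3.04% of 32851 mouse RefSeq promoters of this length. Within the family, the octamer occurred in 6 of 30 beta-defensin promoters, among them those of Defb9, Defb26 and Defb46, and TATATAA in 5 of 30. A run of 24 bases that contains TATATAA, cactatataaggcactgagctcaa, was present in all 3. Of the other RefSeq promoters only 2 held it, those of Defb7 and Defb8, genes without a row in the table of UMI counts. The 3 promoters are alike over most of the window, at 75.5% identity for Defb3 and Defb5, 72.5% for Defb3 and Defb6 and 64.6% for Defb5 and Defb6. RefSeq entries were also matched for Defb22, Defb23 and Defb45 on chromosome 2, 6 of 9 members in all. Neither the octamer nor TATATAA was found in those 3 windows, whose identity with the chromosome 8 promoters and with each other was 42.0% to 49.1%. A TATAAA motif, present in 12.4% of all promoters, occurred in Defb23, 221 bases before the start. An NF-kB consensus, present in 7.25%, occurred in Defb6 at 180 bases. No entry was used for Defb1, Defb19 and Defb25. A match of letters is a description of the window and shows no binding.

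The 9 genes together were lower in the libraries labelled Aire-/-. Their summed UMIs were 374, 343 and 394 in Aire+/+ and 15, 53 and 36 in Aire-/-. The summed level was 123 ± 9.47 CPM in Aire+/+ and 22.0 ± 6.55 CPM in Aire-/- (SD, n = 3 each), which is 5.27-fold lower on the pooled UMIs (exact 95% counting interval 4.31 to 6.51). The Aire-/- libraries held 104 member UMIs, whereas 548 would be counted at their depth if the Aire+/+ level held. In each of the 9 genes the highest Aire-/- library lay below the lowest Aire+/+ library. Of all rows 24.5%, and of tested genes 20.2%, were lower in Aire-/- without overlap. In bulk RNA of a sorted population, fewer cells that make a defensin and less RNA per cell cannot be told apart.

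**Figure D1:**
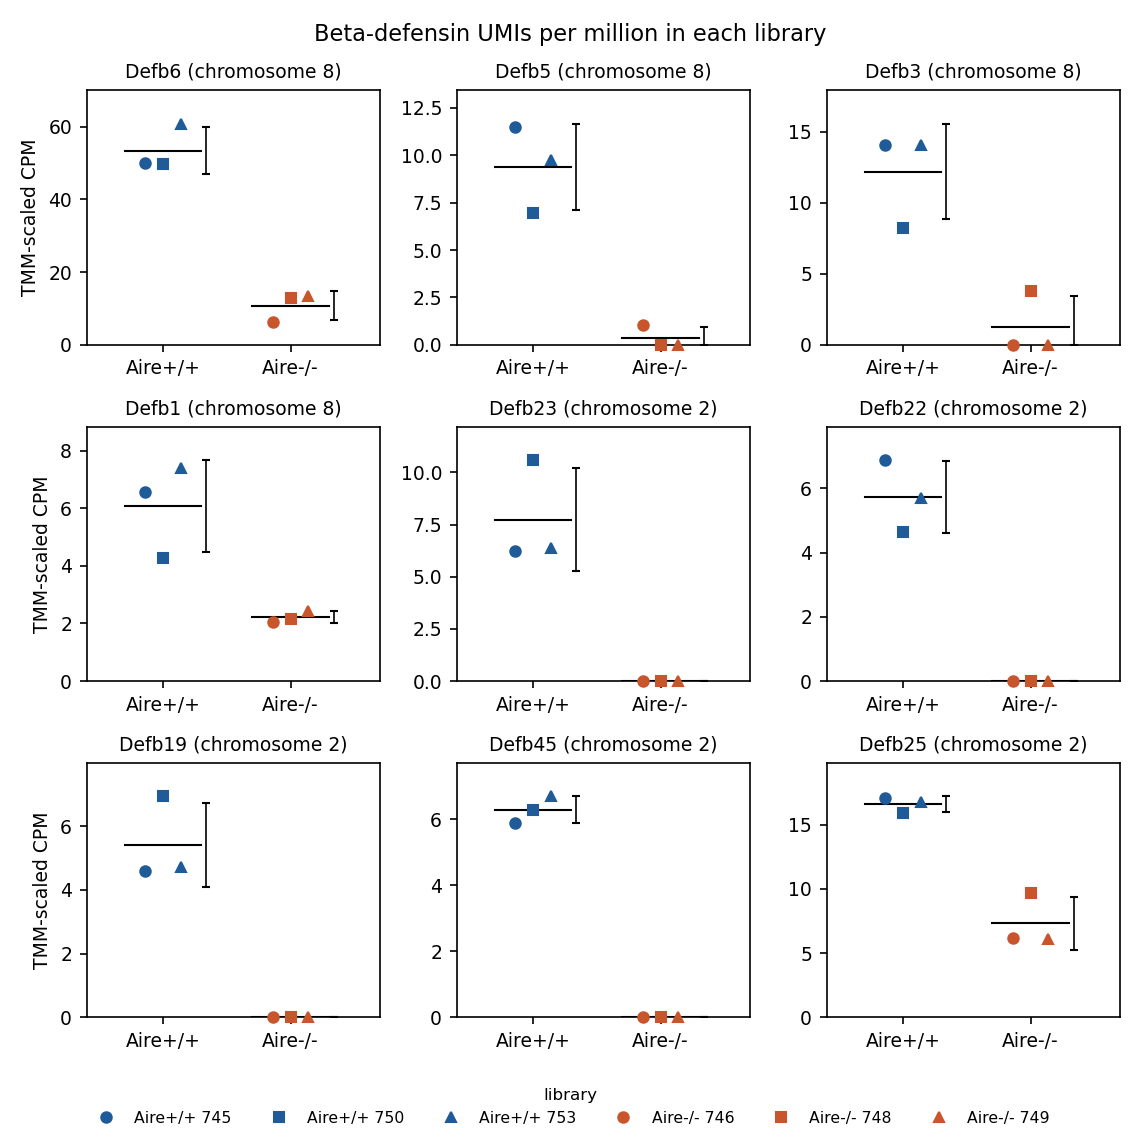
TMM-scaled CPM of the 9 beta-defensin genes in each of the 6 libraries; symbols are libraries, horizontal lines the group means and bars 1 SD (n = 3). The Aire+/+ points lie above all Aire-/- points in every panel, and Defb23, Defb22, Defb19 and Defb45 are at 0 in all Aire-/- libraries.

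Defb6 (chr8:19225478-19228209 in mm10, plus strand) gave the highest count of the family in Aire+/+. In mice it is known from skeletal muscle and from epithelia of the oral cavity and airway. Its UMIs were 152, 150 and 181 in Aire+/+ and 6, 24 and 22 in Aire-/-. The level was 53.4 ± 6.39 CPM against 10.8 ± 4.06 CPM, 4.58-fold lower (counting interval 3.44 to 6.23). Defb6 made up 43.5% of the members' pooled UMIs in Aire+/+ and 50.0% in Aire-/-, and in Aire+/+ it ranked 2837 among the 15643 genes by CPM. Among the Aire-/- libraries 746, the shallowest, had the lowest Defb6 level, 6.16 CPM against 12.9 and 13.4 CPM.

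Defb5 (chr8:19247580-19250828, plus strand) lies between Defb6 and Defb3. Its UMIs were 35, 21 and 29 in Aire+/+ and 1, 0 and 0 in Aire-/-, where 41.9 would be counted at the Aire+/+ level. The single UMI came from library 746. The level was 9.38 ± 2.29 CPM against 0.342 ± 0.593 CPM, a pooled ratio of 41.9-fold with a wide counting interval of 7.33 to 1676. Without library 746 the gene was at 0 and at least 10.9-fold lower, and without 748 or 749 the ratio was 24.4 or 26.6.

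Defb3 (chr8:19293360-19295291, plus strand) encodes a peptide induced by infection in mouse airways. Its UMIs were 43, 25 and 42 in Aire+/+ and 0, 7 and 0 in Aire-/-, so that library 748 held all the Aire-/- UMIs of this gene. The level was 12.2 ± 3.37 CPM against 1.26 ± 2.17 CPM, 7.76-fold lower (counting interval 3.64 to 19.7). Without library 748 it was at least 10.5-fold lower, and without library 749 it was 4.91-fold lower. In the same library 748, Defb5 had 0 UMIs, which allows up to 1.61 CPM, and Defb6 had 24.

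Defb1 (chr8:21776599-21795185, plus strand) encodes a peptide made constitutively by kidney and airway epithelium. It lies 2481 kb past Defb3. Its UMIs were 20, 13 and 22 in Aire+/+ and 2, 4 and 4 in Aire-/-. The level was 6.08 ± 1.60 CPM against 2.22 ± 0.204 CPM, 2.71-fold lower (counting interval 1.37 to 5.97). The 3 Aire-/- libraries were at 2.05, 2.15 and 2.45 CPM, but at 2 to 4 UMIs each their closeness carries no weight. All 3 kept some UMIs of the gene, which of the chromosome 8 members held for Defb6 too.

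On chromosome 2, 5 members lie on the minus strand within 164 kb, in the order Defb23, Defb22, Defb19, Defb45 and Defb25. The first 4 had no UMI in any Aire-/- library. Such a count was found in 5.48% of all rows, and in 152 of the 2527 rows (6.02%) that, like these 4, had 40 to 80 UMIs over the Aire+/+ group. Because a count of 0 allows up to 3 UMIs, each ratio is a lower bound against 3 UMIs over the Aire-/- group.

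Defb23 (chr2:152459055-152464620), which in the rat is known from the epididymis and from sperm maturation, had 19, 32 and 19 UMIs in Aire+/+, or 7.73 ± 2.46 CPM, and was at least 11.5-fold lower in Aire-/-. Defb22 (chr2:152485663-152490138), a component of the sperm coat, had 21, 14 and 17 UMIs in Aire+/+, or 5.74 ± 1.13 CPM, and was at least 8.55-fold lower. Defb19 (chr2:152576086-152580312), known from Sertoli cells of the mouse testis, had 14, 21 and 14 UMIs, or 5.41 ± 1.32 CPM, and was at least 8.06-fold lower. These genes varied among the Aire+/+ libraries without a common order, since library 750 was the highest for Defb23 and Defb19 and the lowest for Defb22. Defb45 (chr2:152593191-152599399) had 18, 19 and 20 UMIs, or 6.30 ± 0.406 CPM, the smallest spread of these 4, and was at least 9.38-fold lower. At the Aire+/+ level the Aire-/- libraries would have held 34.5, 25.7, 24.2 and 28.1 UMIs of Defb23, Defb22, Defb19 and Defb45. With library 748 left out, the shallower pool lowered the bounds to 6.69, 4.97, 4.69 and 5.45 in that order, and with library 749 left out to 7.29, 5.42, 5.10 and 5.94.

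Defb25 (chr2:152622356-152623053), at the other end of the cluster, differed from its neighbours in keeping many of its UMIs. It had 52, 48 and 50 UMIs in Aire+/+ and 6, 18 and 10 in Aire-/-. The level was 16.6 ± 0.628 CPM against 7.32 ± 2.05 CPM, 2.18-fold lower (counting interval 1.49 to 3.26), the smallest ratio of the 9. Its share of the members' pooled UMIs was 13.5% in Aire+/+ and 32.7% in Aire-/-, and all 34 Aire-/- UMIs of the chromosome 2 members were its own.

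Summed by chromosome, the members on chromosome 8 were 5.17-fold lower (counting interval 4.04 to 6.70) and those on chromosome 2 were 5.49-fold lower (3.86 to 8.04), so the intervals overlap widely. The similar sums hide unlike members, because Defb6 carries most of the first and Defb25 all of the Aire-/- signal of the second. With libraries 753 and 746 both left out, the direction was the same in all 9 genes, with Defb6 3.79-fold, Defb3 5.61-fold, Defb1 2.38-fold and Defb25 2.06-fold lower. The bounds without those libraries were 10.8 for Defb5, 9.81 for Defb23, 6.73 for Defb22, 6.73 for Defb19 and 7.12 for Defb45.

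**Figure D2:**
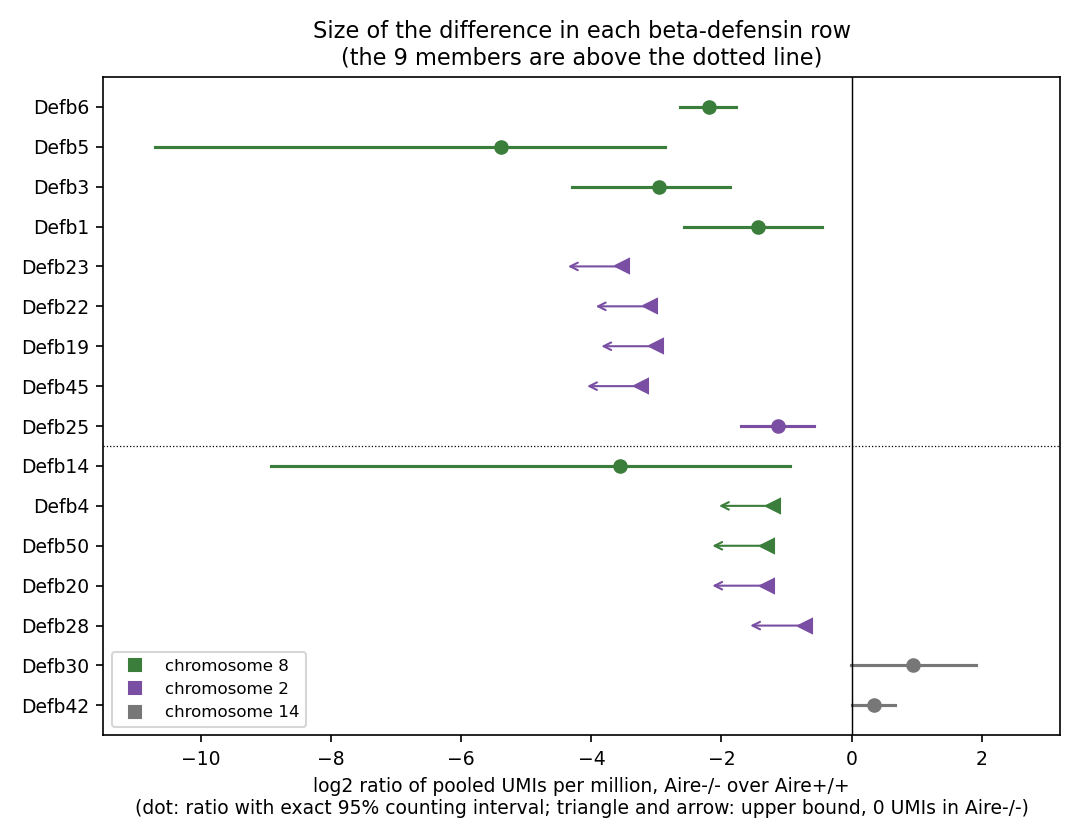
Log2 ratio of pooled CPM, Aire-/- over Aire+/+, for the 16 beta-defensin rows; dots have exact 95% counting intervals, and triangles with arrows are upper bounds for rows with 0 UMIs in Aire-/-. All 9 members lie left of 0, and the dots of Defb30 and Defb42 on chromosome 14 lie right of it, with intervals that reach about 0.

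In the fit across the table, 11956 genes had enough UMIs to be tested, among them all 9 members. All 9 were called lower at an adjusted p of 0.05, where 12.1% of tested genes were called lower and 8.59% higher. Since the members were proposed from this contrast, nothing is read from that count. By the authors' deposited table, log2 fold changes of Aire+/+ over Aire-/- ran from 1.14 for Defb25 and 1.44 for Defb1 to 5.91 for Defb23. Because Defb23 had no UMI in Aire-/-, 5.91 is a fitted value and not a measured size. The authors' deposited table selects 8 of the 9, all but Defb1, among 1474 genes, and 7.14% of its rows are selected as higher in Aire+/+.

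The other 7 beta-defensin rows divide by chromosome. On chromosomes 2 and 8, Defb14, Defb4, Defb50, Defb20 and Defb28 had 78 UMIs in Aire+/+ and 1 in Aire-/-, where 38.5 would be counted at the Aire+/+ level. Defb14, the mouse counterpart of a human skin beta-defensin that binds CCR6, had 12, 9 and 3 UMIs in Aire+/+ and 0, 1 and 0 in Aire-/-. Defb4, an inducible airway peptide, had 4, 2 and 8, Defb50 had 2, 6 and 7, Defb20 had 3, 7 and 5, and Defb28 had 6, 3 and 1, all with 0 in Aire-/-. Their Aire+/+ means of 1.10 to 2.64 CPM were below that of every member, the lowest of which was Defb19 at 5.41 CPM. None of the 5 had enough UMIs for the test.

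On chromosome 14 the pair Defb42 and Defb30, both known from the epididymis, did not share the direction of the members. Defb42 had 60, 72 and 73 UMIs in Aire+/+ and 19, 48 and 61 in Aire-/-, or 22.7 ± 2.60 CPM against 27.5 ± 9.02 CPM. Its libraries overlapped, and the difference did not pass the test (log2 fold change 0.32, SE 0.24, edgeR adjusted p = 0.396, with 0.164 to 0.929 over the alternatives). Defb30 had 7, 7 and 7 UMIs in Aire+/+ and 0, 7 and 13 in Aire-/-, a pooled ratio of 1.93 (counting interval 0.992 to 3.74) that was not tested. The 2 genes overlap at their 5′ ends on opposite strands. Defb42 had more UMIs in Aire+/+ than any member but Defb6.

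**Figure D3:**
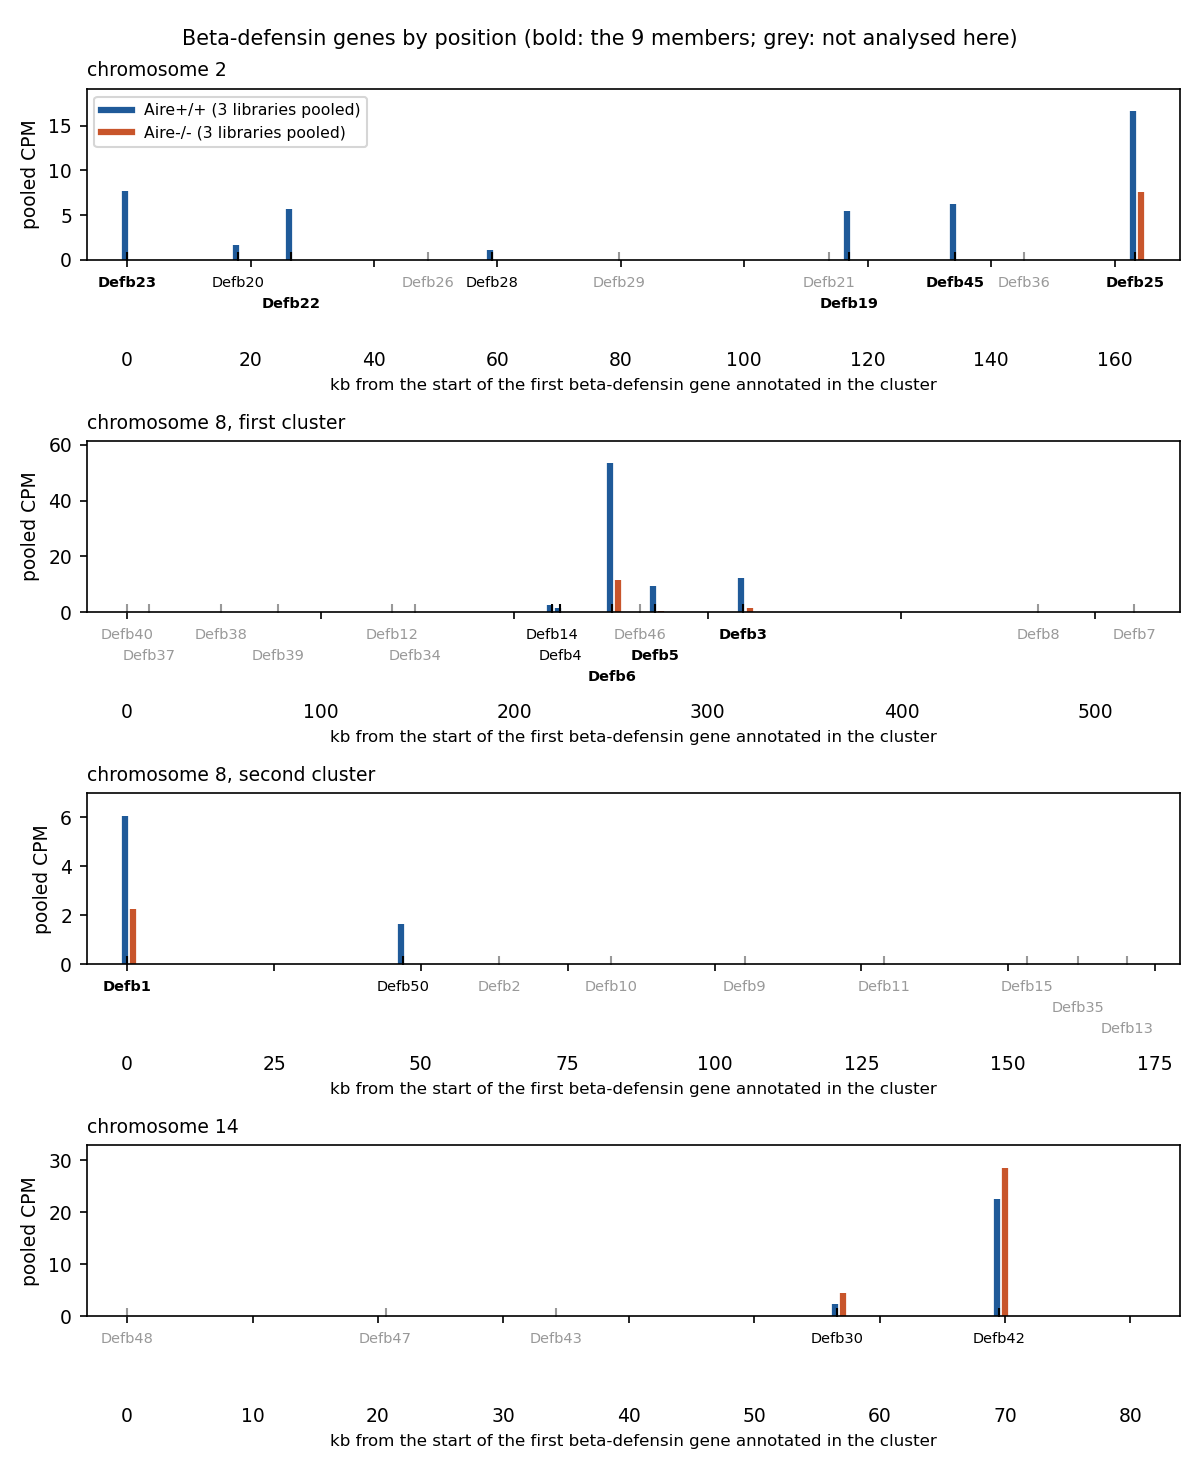
Pooled CPM of the beta-defensin genes (vertical axis) by distance in kb from the first beta-defensin gene of each cluster (horizontal axis), for the 3 pooled Aire+/+ and the 3 pooled Aire-/- libraries. Bars of Aire-/- are shorter or absent on chromosomes 2 and 8 and taller on chromosome 14, where Defb42 reaches 28.6 CPM against 22.6.

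The mouse GENCODE annotation on mm10 places 42 Defb genes, 24 on chromosome 8, 11 on chromosome 2, 5 on chromosome 14 and 2 on chromosome 1. All 9 members have 2 exons. Their coding sequences are shortest in Defb3 and Defb6, at 189 nt, and longest in Defb23 and Defb22, at 498 and 537 nt. Of the last 300 nt of the annotated member transcripts, near which MARS-seq reads start, none matched another gene at 90% identity over 80 nt. The coding transcripts of Defb5, Defb3 and Defb25 are shorter, at 207, 275 and 293 nt. In Defb5 192 of the 207 nt are coding, so a 3′ end beyond the annotation was not searched. The closest match was Defb3 with Defb5, at 86.0% over 207 nt, and Defb5 with Defb6 matched at 84.5% over 103 nt. Longer matches of lower identity were Defb3 with Defb8, at 83.5% over 278 nt, and Defb6 with Defb4, at 81.7% over 301 nt. No other annotated gene overlaps a member.

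Of the 26 other rows within 300 kb of the members, 15 had enough UMIs to be tested, of which 2 fell, 2 rose and 11 did not pass, with a median log2 fold change of 0.16 against -0.02 over all tested genes. The share that fell, 13.3%, was near the 12.1% of all tested genes. Of the 11 untested rows, 8 had 0 UMIs in all Aire-/- libraries, among them 4 of the other beta-defensins. Such a count was found in 5.48% of all rows. These 8 had only 10 to 36 UMIs over the Aire+/+ group, and the share among rows of such low counts was not taken. All 6 untested rows on chromosome 8 had at most 1 UMI in Aire-/-, for example the alpha-defensin gene Defa24, with 11, 13 and 12 UMIs in Aire+/+ and 0 in Aire-/-, and Fam90a1a, with 6, 7 and 15 against 0. On chromosome 2 the untested Tpx2, a spindle assembly factor gene, had 10, 7 and 13 against 2, 7 and 6. On chromosome 2, 13 were tested. The transcript 6820408C15Rik (chr2:152415587-152444330), 14.7 kb from Defb23, had 44, 32 and 27 UMIs in Aire+/+ and 1, 0 and 0 in Aire-/- and fell (log2 fold change -5.35, SE 0.73, edgeR adjusted p = 1.86e-04). Cox4i2, a subunit isoform of cytochrome c oxidase, had 25, 15 and 21 against 0, 0 and 2 UMIs and fell too (-3.76, SE 0.73, adjusted p = 2.19e-03). Bcl2l1, which encodes the survival protein Bcl-xL, rose from 85.2 ± 12.1 to 188 ± 4.86 CPM (1.14, SE 0.14, adjusted p = 8.39e-05). Rbck1, a ubiquitin ligase subunit, did not pass (0.33, SE 0.14, adjusted p = 0.139). Beyond the other end of the cluster, 3.9 kb past Defb25, Rem1 had 27, 33 and 30 against 9, 19 and 22 UMIs and did not pass (0.16, SE 0.29, adjusted p = 0.755). On chromosome 8 only 2 neighbours were tested, Xkr5, which rose (1.27, SE 0.23, adjusted p = 1.60e-03), and the glycosyltransferase gene Alg11, which did not pass (-0.01, SE 0.46, adjusted p = 0.993). Rem1, the tested gene nearest to a member, and the untested rows were named after their values were seen.

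Other antimicrobial proteins were lower in most cases, with exceptions in the opposite direction. Of 54 listed genes 41 had a row and 34 were tested, of which 22 fell, 4 rose and 8 did not pass, with a median log2 fold change of -1.16. The share that fell was 64.7%, against 12.1% of all tested genes. Several of the genes that fell, Zg16 among them, had few or no UMIs in Aire-/- and passed the filter only through Aire+/+. Those could hardly be called other than lower, so little is read from this share. S100a9, a subunit of calprotectin, which withholds metals from microbes, fell from 391 ± 82.8 to 22.5 ± 15.0 CPM (-4.01, SE 0.31, edgeR adjusted p = 2.57e-06). Reg3g, a gut lectin that kills Gram-positive bacteria, fell from 614 ± 68.4 to 166 ± 41.3 CPM (-1.90, SE 0.17, adjusted p = 8.41e-06). Lcn2, which binds bacterial siderophores, fell from 118 ± 12.7 to 24.1 ± 8.41 CPM (-2.32, SE 0.22, adjusted p = 1.02e-05). Zg16, a goblet-cell lectin, had 93, 72 and 77 UMIs in Aire+/+ and none in Aire-/-, at least 39.8-fold lower (adjusted p = 8.41e-06). Hamp, the iron hormone hepcidin, rose from 168 ± 22.5 to 1103 ± 98.0 CPM (2.71, SE 0.15, adjusted p = 1.65e-07). Of the 7 rows of the list without a test, 3 had no UMI in Aire-/-, as had 5.48% of all rows at any depth.

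Lcn2 and S100a9 are also made by neutrophils. Of 11 other neutrophil markers, chosen after these values were seen, 10 had a row and 8 were tested, of which 6 fell and none rose. Of all tested genes 12.1% were called lower. The 6 that fell had 0 to 2 UMIs in each Aire-/- library and passed the filter only through Aire+/+. They could hardly be called other than lower, so little is read from this count. The summed level of the 10 markers with a row was 249.6 to 314 CPM in Aire+/+ and 88.3 to 97.4 CPM in Aire-/-. Most of the Aire-/- sum was Mmp9, a matrix metalloproteinase gene, with 284, 313 and 312 against 82, 164 and 117 UMIs, which did not pass (log2 fold change -0.31, SE 0.14, edgeR adjusted p = 0.163). Mpo, the myeloperoxidase of neutrophil granules, had 127, 108 and 106 against 1, 2 and 2 UMIs, and Ly6g, a neutrophil surface marker, had 208, 184 and 347 against 1, 0 and 0. The chemokine receptor gene Cxcr2, in contrast, had 8, 16 and 25 against 1, 11 and 31 UMIs and did not pass (log2 fold change 0.78, SE 0.61, edgeR adjusted p = 0.422). Without a test, Csf3r had 7, 7 and 4 against 0, 2 and 6 UMIs, and Mmp8 had 18, 3 and 3 against 0, 0 and 0. The part of these cells or genes in the antimicrobial and beta-defensin values was not tested.

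Secreted proteins of the epididymis and male tract mostly fell among the few that were tested. Of 48 listed genes 19 had a row and 9 were tested, of which 8 fell, none rose and 1 did not pass. The share that fell was 88.9%, against 12.1% of all tested genes. Their log2 fold changes had a median of -5.26, and of -3.98 once genes at 0 UMIs in Aire-/- were set at their bound. Lcn10, Lcn6 and Cst8, with no UMI in Aire-/-, and Lcn8 and Spink2, with 1, passed the filter only through Aire+/+. The other genes that fell also passed only through Aire+/+, with too few UMIs in at least 1 Aire-/- library. Such genes could hardly be called other than lower, so little is read from the count of calls. Lcn8, an epididymal lipocalin, had 163, 169 and 212 UMIs in Aire+/+ and 1, 0 and 0 in Aire-/- (ratio 268, counting interval 48.0 to 10624, edgeR adjusted p = 4.73e-07). Its neighbours in the same family, Lcn10 and Lcn6, had 80, 96 and 106 and 92, 70 and 109 UMIs in Aire+/+ and none in Aire-/-. They were at least 46.4-fold and 44.6-fold lower (adjusted p = 6.04e-06 and 1.16e-05). Cst8, a cystatin of the epididymis and testis, had 38, 32 and 26 UMIs against none and was at least 15.8-fold lower (adjusted p = 1.53e-04). Spink2, a protease inhibitor of the sperm acrosome, had 17, 19 and 60 against 0, 0 and 1 UMIs, so that library 753 held most of its UMIs (ratio 47.4, counting interval 8.30 to 1891, adjusted p = 2.56e-03). Like Lcn10 and Lcn6, the members Defb23 and Defb22 had no UMI in Aire-/-, whereas Defb42 of the epididymis had 19 to 61 in each of those libraries. With the looser filter of min.count 3, 14 of 15 tested genes of the list fell, under the same limit, and with DESeq2 6 of 9 fell.

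Receptors and inducing pathways of beta-defensins mostly did not pass. Of 25 listed genes 22 had a row and 20 were tested, of which 1 fell, 2 rose and 17 did not pass, with a median log2 fold change of 0.13. The share that fell, 5.0%, was below the 12.1% of all tested genes, and 8.59% of all tested genes rose. The single calls are not read as a trait of the list. Ccl20, the chemokine ligand of CCR6, fell from 91.8 ± 28.9 to 21.8 ± 7.44 CPM (-2.11, SE 0.28, edgeR adjusted p = 1.59e-04). Its receptor gene Ccr6 had 28.7 ± 5.05 against 42.2 ± 6.44 CPM and did not pass (0.58, SE 0.19, adjusted p = 0.0523). Il17ra, the IL-17 receptor chain, and Ifngr1, the interferon-gamma receptor chain, rose (0.51, SE 0.15, adjusted p = 0.0316, and 0.56, SE 0.18, adjusted p = 0.0422). Neither of these 2 passed when scaled by library totals or with DESeq2, and together with Ccl20 the list then had 1 call in place of 3, as it did without library 750, 753 or 748. Tnfrsf1a, a TNF receptor gene, did not pass (0.42, SE 0.16, adjusted p = 0.0871).

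**Figure D4:**
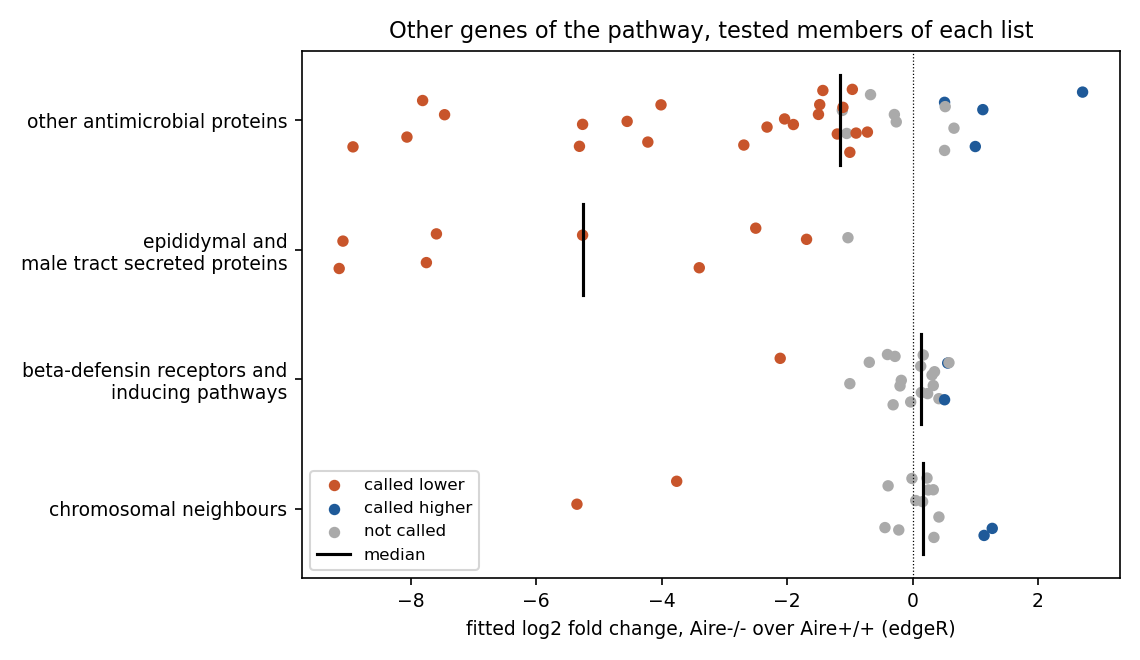
Fitted log2 fold change, Aire-/- over Aire+/+, of the tested genes of 4 lists; each dot is a gene, coloured by its call at an adjusted p of 0.05, and vertical lines are the fitted medians. The antimicrobial and male-tract lists lie mostly left of 0, with medians of -1.16 and -5.26, and the receptors and neighbours centre near 0, at 0.13 and 0.16.

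Over the 6 libraries, the tested genes whose log2 CPM followed Defb6 most closely were Psmd6, a proteasome subunit gene, Dkkl1, a gene of the sperm acrosome, and Lypd2 (Pearson r 0.9988, 0.9984 and 0.9983). For Defb25 they were Tmprss6, the protease that cleaves hemojuvelin, Gm2042 and Pbx4 (0.9999, 0.9984 and 0.9975). In Aire-/-, Tmprss6 had 0, 4 and 0 UMIs and Gm2042 had 0, 2 and 0, so their levels there rest on few UMIs. The named genes differed in the size of their change, since Psmd6 moved by -0.27 on the log2 scale and Lypd2 by -3.90. With 3 libraries a genotype, 570 genes had r above 0.95 with Defb6 and 284 with Defb25, so these names describe the tail of a common pattern.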

How the data were processed

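The 6 MARS-seq libraries of sorted mTEChi share 1 table. The authors deposited it with raw UMI counts for each gene, per the file headers. Its other columns, not used here, are a normalized signal (the authors' counts over a size factor per library) and the authors' regularized log2 values. The log2 fold changes, p-values and selection are the authors' own, per the file headers. The build mm10 and the tools STAR 2.4.2a, HTSeq, DESeq2, cutadapt and bcl2fastq are named in the submitters' processing notes. How UMIs were collapsed, the strand setting and the annotation were not given in the sources used here.

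The members and lists were chosen with earlier results of these data known. Genotypes were compared across all 6 libraries with the quasi-likelihood test of edgeR 4.0.16 in R 4.3.3, with TMM scaling, filterByExpr (min.count 10) and Benjamini-Hochberg adjustment over 11956 genes at a threshold of 0.05. The step was tested on simulated data. In every list, a gene with no UMIs or too few in Aire-/- could pass the filter only through Aire+/+. It could then hardly be called other than lower. Adjusted p-values are edgeR's. DESeq2 1.42.0 was an alternative, as were other scalings, filters and left-out libraries. Levels are CPM with TMM factors, and log2 CPM used a prior count of 2. Ratios pool the UMIs of 3 libraries, with exact Clopper-Pearson intervals at 95%, and 0 UMIs was set at a floor of 3 UMIs over the group. A count of 0 in 1 library allows 0.984 to 1.01 CPM in Aire+/+ and 1.61 to 3.08 CPM in Aire-/-. Intervals and floors cover counting error only. Replicate libraries differed by more than counting noise, at a chi-square per degree of freedom of 3.02 to 6.82.

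The text names the 9 members, all other Defb rows, the 5 tested genes of smallest p in each list (4 for neighbours on each chromosome) and the 3 genes most like Defb6 and Defb25. Marker genes, Rem1 and some untested neighbours are named beside them. The neighbours and Mpo, Ly6g, Mmp9, Cxcr2, Csf3r and Mmp8 were named after their values were seen. Positions come from GENCODE on GRCm38, the build that mm10 names, and promoters from RefSeq (GRCm38.p6). RefSeq starts Defb5 at its first coding base, so its window is shifted against the others. Transcript ends were compared with blastn 2.17.0.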

Additional observations from a re-analysis of the deposited data

How the results depend on the processing

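No paired analysis was possible because the libraries of the 2 genotypes share no number. The summed beta-defensin level had a log2 ratio of -2.40, and of -2.22 to -2.64 under other scalings and with libraries left out, the alternatives run for it. For the 5 members with UMIs in Aire-/-, 39 of 45 values under these alternatives moved by less than the spread between replicates, 6 moved further and none changed sign. Among the 6 are bounds of Defb5 without library 746, and without 753 and 746 together. Defb3 without library 748 was also a bound. The other 4 members have only bounds, which move with the pooled depth. Genes called lower (1450) ranged from 1098 to 1899 with 1 library left out. They were 1216 with DESeq2, 2048 when scaled by library totals, 2113 at min.count 3 and 2142 with no filter. Genes called higher (1027) were 567 when scaled by library totals, 652 without 753 and 746 together, and 618 to 1156 with 1 library left out. Lower calls were 58.5% of all calls, and 78.3% when scaled by library totals, which moved the median of all tested genes from -0.02 to -0.22 on the log2 scale. Epididymal genes called (8) were 14 at min.count 3 and 15 with no filter, since more genes were tested, 6 with DESeq2, and 6 to 9 with 1 library left out. Receptor and inducer genes called (3) were 1 when scaled by library totals, 1 with DESeq2, and 1 to 4 with 1 library left out. Neighbours called (4) were 7 at min.count 3, 7 with no filter, 15 within 1000 kb, and 4 to 6 with 1 library left out. Antimicrobial genes called (26) ranged from 22 to 31 over all alternatives. The cause of these shifts was not tested where none is given.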
